A study of Mus musculus with 15 samples.

Results

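The cytosolic ribosomal proteins were followed at the mRNA level through 5 populations of antigen-activated mouse B cells. They are the genes whose symbols begin with Rpl or Rps and a digit, together with Rplp0, Rplp1, Rplp2, Rpsa and Fau, without the Rps6k kinases and without names that mark pseudogenes. Of 23420 genes in the deposited table, 87 met this rule by symbol and 85 had a value above 0 in at least 3 of the 15 libraries. Rpl3l was above 0 in 1 library and Rpl10l was listed at 0 in all of them, and both were left out. The 85 members hold 43 proteins of the large subunit, 32 of the small subunit and 3 of the P stalk, 78 canonical proteins in all. The other 7 are 6 paralogs (Rpl7l1, Rpl22l1, Rpl36al, Rpl39l, Rps4y2 and Rps27l) and Rps19bp1, which meets the rule by its symbol but encodes a nucleolar protein that binds Rps19. Gnb2l1 also encodes a ribosomal component, but its symbol lies outside the rule.

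Each library was made from 100 sorted lymph node cells, with 3 libraries in each group, taken on day 12 after B cells carrying the B1-8hi receptor knock-in (KI/+, CD45.1+) had been transferred into C57BL6 mice immunized with NP-CGG in CFA. GC-PB are germinal centre derived plasmablasts (CD138hi CD44hi, tdTomato+), whose donors carried an S1pr2-ERT2cre transgene and the ROSA-Ai14 reporter (KI/+) and whose hosts received tamoxifen on days 6, 7 and 8. In that model S1pr2 regulatory sequence drives an inducible Cre, so a plasmablast is marked only if Cre acted in it or in its precursor during the treatment. The other groups were germinal centre B cells (B220+ CD38lo GL7hi) from donors with a Bcl6-YFP reporter (KI/+): Fraction 1 (CXCR4lo CD86hi light zone, CD69hi Bcl6lo), Fraction 2 (light zone, CD69hi Bcl6hi), Fraction 3 (light zone, CD69lo Bcl6hi) and DZ (dark zone, CXCR4hi CD86lo). The replicates are independent library preparations, and nothing in the labels ties them to separate animals, so every p-value here measures the spread between libraries, which may be technical.

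Ribosomal proteins form, with ribosomal RNA, the small subunit that decodes mRNA and the large subunit that joins amino acids. Their mRNAs are among the most abundant in dividing cells, and most begin with a C followed by a run of pyrimidines, the 5′ terminal oligopyrimidine (TOP) motif, through which the kinase mTOR and the binding protein Larp1 control their translation. Myc raises transcription of many of them, and germinal centre B cells selected in the light zone are known to induce Myc before they divide, whereas plasmablasts turn to the synthesis of secreted antibody.

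The TOP motif was read from the start sites in RefSeq (mouse build GRCm38.p6), since the members share it by class and not by the rule that chose them. A start was available for 64 of the 85 members, 58 of them canonical. The motif searched was a C followed by at least 4 bases that are each C or T, on the transcribed strand, beginning within 5 bases of the annotated start. It was present in 28 of the 58 canonical members (48.3%) and in 17 of 67 mitochondrial ribosomal protein genes (25.4%). Over all 27025 genes with a start the share was 21.2%, and over the tested genes it was 23.8%. Runs in the canonical members were 5 to 17 bases long, with a median of 8. The sequences below show 10 bases before and 20 bases from the annotated start. A run is in capitals where it begins within 5 bases of that start. The first 5 are members with such a run, chosen because they are described below.
Fau, chr19:6057937-6057966, plus strand: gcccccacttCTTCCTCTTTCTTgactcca
Rpl38, chr11:114668570-114668599, plus strand: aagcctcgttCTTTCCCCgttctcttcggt
Rps27, chr3:90213629-90213658, minus strand: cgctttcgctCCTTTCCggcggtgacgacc
Rps24, chr14:24490668-24490697, plus strand: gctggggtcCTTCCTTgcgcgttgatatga
Rps27l, chr9:66946076-66946105, plus strand: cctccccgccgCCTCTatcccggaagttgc
The others have no run that begins within 5 bases of the start, although Rpl36al and Rps12 hold one further downstream. They include the 3 remaining members that were higher in plasmablasts and a member that was much lower there.
Rpl36al, chr12:69184048-69184077, minus strand: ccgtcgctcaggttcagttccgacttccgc
Rpl10, chrX:74270806-74270835, plus strand: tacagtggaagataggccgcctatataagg
Rpl41, chr10:128549149-128549178, minus strand: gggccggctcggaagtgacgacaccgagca
Rps12, chr10:23787190-23787219, minus strand: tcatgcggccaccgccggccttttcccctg
A missing run says only that these letters are not near this annotated start, and annotated starts can lie several bases from the one a cell uses.

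Levels below are the deposited signal scaled to the same library total, leaving out the ribosomal RNA precursor Rn45s, with a common total of 53845. Differences are on the scale of log2(level + 1), with the standard error of the fit, and calls rest on an adjusted p (Benjamini-Hochberg, over 11190 tested genes in limma) under 0.05. The step of a library is its most frequent value above 0. Divided by it, the totals were 184103 to 216584 in GC-PB and 231687 to 376992 in the germinal centre libraries, read here as molecules. Xist was above 0 in all GC-PB and Fraction 1 libraries, at levels of 12.5 to 20.1, and listed at 0 in the other 9, and the step of the values separated the libraries in the same way, at 0.305 to 0.362 against 0.105 to 0.139. Fraction 1 vs Fraction 2 crosses this divide, so that fraction and donor or run cannot be told apart there, while the other 3 comparisons lie on 1 side of it. In GC-PB vs Fraction 1 the population cannot be told apart from the donor line and the tamoxifen treatment, which differ between these groups. All 9 germinal centre B cell markers were detected in the 4 germinal centre groups, and 7 of them in GC-PB, where Bcl6 was at 0. Their summed level was 93.9 to 123 in GC-PB and 140 to 170 in Fraction 1. It was 297 to 322 in Fraction 2, 408 to 443 in Fraction 3 and 377 to 414 in DZ. The summed level of the 7 plasmablast markers ran from 2781 to 3663 in GC-PB and from 47.8 to 112 elsewhere. The summed level of the 6 T cell markers in the table was 0 to 1.73 in GC-PB, 4.43 to 7.56 in Fraction 1, 6.41 to 8.21 in Fraction 2, 5.25 to 6.84 in Fraction 3 and 2.02 to 3.13 in DZ. Most of it was Lck, while Cd3e and Cd4 were at 0 in every group, as was the myeloid marker Itgam.

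The 85 members took a smaller share of the signal in plasmablasts than in any germinal centre library. Their share of the total without Rn45s was 15.9%, 19.1% and 16.7% in GC-PB. It was 23.8%, 23.9% and 23.1% in Fraction 1, 22.5%, 21.5% and 22.2% in Fraction 2, 21.1%, 20.3% and 20.5% in Fraction 3, and 21.2%, 22.4% and 22.5% in DZ. The GC-PB libraries lay below the other 12 and the Fraction 1 libraries above all others, while Fraction 2 and DZ overlapped. The group means were 17.2% ± 1.64 in GC-PB, 23.6% ± 0.425 in Fraction 1, 22.0% ± 0.487 in Fraction 2, 20.6% ± 0.385 in Fraction 3 and 22.0% ± 0.732 in DZ (SD, n = 3 each). With sorted pools of cells, fewer cells expressing a gene and less of its RNA per cell cannot be told apart.

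**Figure D1:**
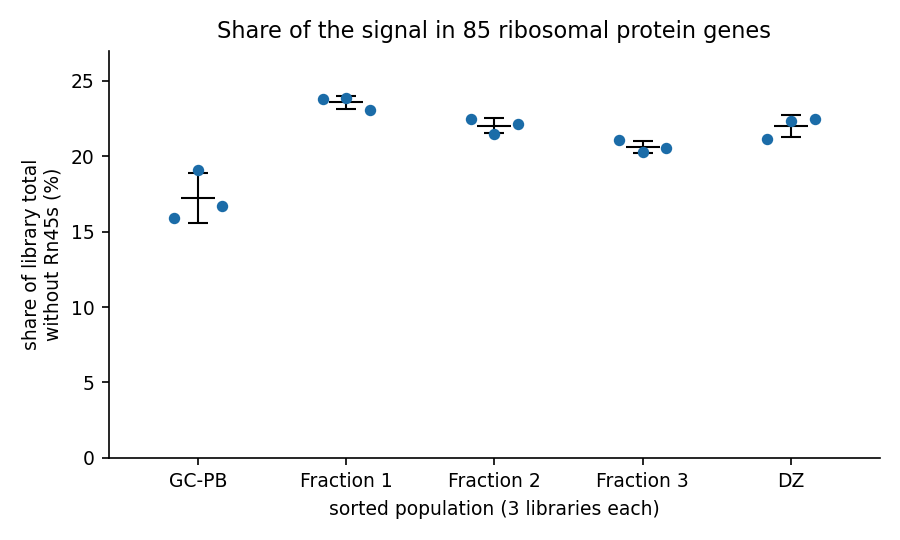
Share of the library total without Rn45s (%, vertical axis from 0) taken by the 85 ribosomal protein genes in each of the 15 libraries (points), with the mean and 1 SD of each sorted population (bars). The GC-PB libraries sit at 15.9% to 19.1%, under the 20.3% of the lowest germinal centre library.

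Both subunits had lower sums in GC-PB, and their ratio differed from that of the germinal centre libraries. The summed level of the large subunit averaged 4735 ± 396 in GC-PB, 6281 ± 114 in Fraction 1, 5806 ± 85.1 in Fraction 2, 5436 ± 103 in Fraction 3 and 5759 ± 148 in DZ. For the small subunit it averaged 3924 ± 436 in GC-PB, 5653 ± 87.4 in Fraction 1, 5383 ± 149 in Fraction 2, 5076 ± 98.8 in Fraction 3 and 5398 ± 225 in DZ. The ratio of the large subunit with the stalk to the small subunit ran from 1.28 to 1.34 in GC-PB and from 1.22 to 1.23 in Fraction 1, against 1.15 to 1.20 in the other 9 libraries. These groups of libraries did not overlap in the ratio. Xist and the step of the values also set GC-PB and Fraction 1 apart from the other 9 libraries. Population and donor or run cannot be told apart in that split. It is a ratio of sums, and the median difference between GC-PB and Fraction 1 was -0.60 for the large and -0.61 for the small subunit. The large subunit sum holds Rpl41 and Rpl10, the 2 of its 43 members called higher in GC-PB. They averaged 579 and 249 in GC-PB, against 382 and 150 in Fraction 1. Their part in the ratio was not tested.

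In plasmablasts compared with Fraction 1, most ribosomal protein mRNAs fell, and a few rose. Of the 85 members 73 were lower and 5 higher, and 7 were not called. Over all tested genes 22.7% were lower and 14% higher. The median difference was -0.59 over the members and -0.08 over all tested genes. Among the large subunit proteins 38 of 43 were lower and 2 higher, among the small subunit proteins 29 of 32 were lower and 1 higher, and all 3 stalk proteins were lower. In 54 of the 78 canonical members (69.2%) every GC-PB library lay below the other 12 libraries, against 13.3% of all tested genes. In 4 of them (5.13%, against 8.80% of tested genes) every GC-PB library lay above the rest, namely Rpl10, Rpl41, Rps24 and Rps14. GC-PB libraries also differed from Fraction 1 libraries in the share of Rn45s, at 8.34% to 9.97% against 3.87% to 4.75%, in their lower molecule totals, and in the myeloid marker list, where 2 of 6 genes were detected in either group and the sum was 23.2 to 30.1 against 3.24 to 4.10. Most of that sum was Cst3, which averaged 25.4 and 2.88, while Lyz2, Csf1r, Itgam and Cd14 were at 0 in both groups. The T cell marker sum also differed, at 0 to 1.73 in GC-PB against 4.43 to 7.56 in Fraction 1, and the part of these differences in the result was not tested.

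**Figure D2:**
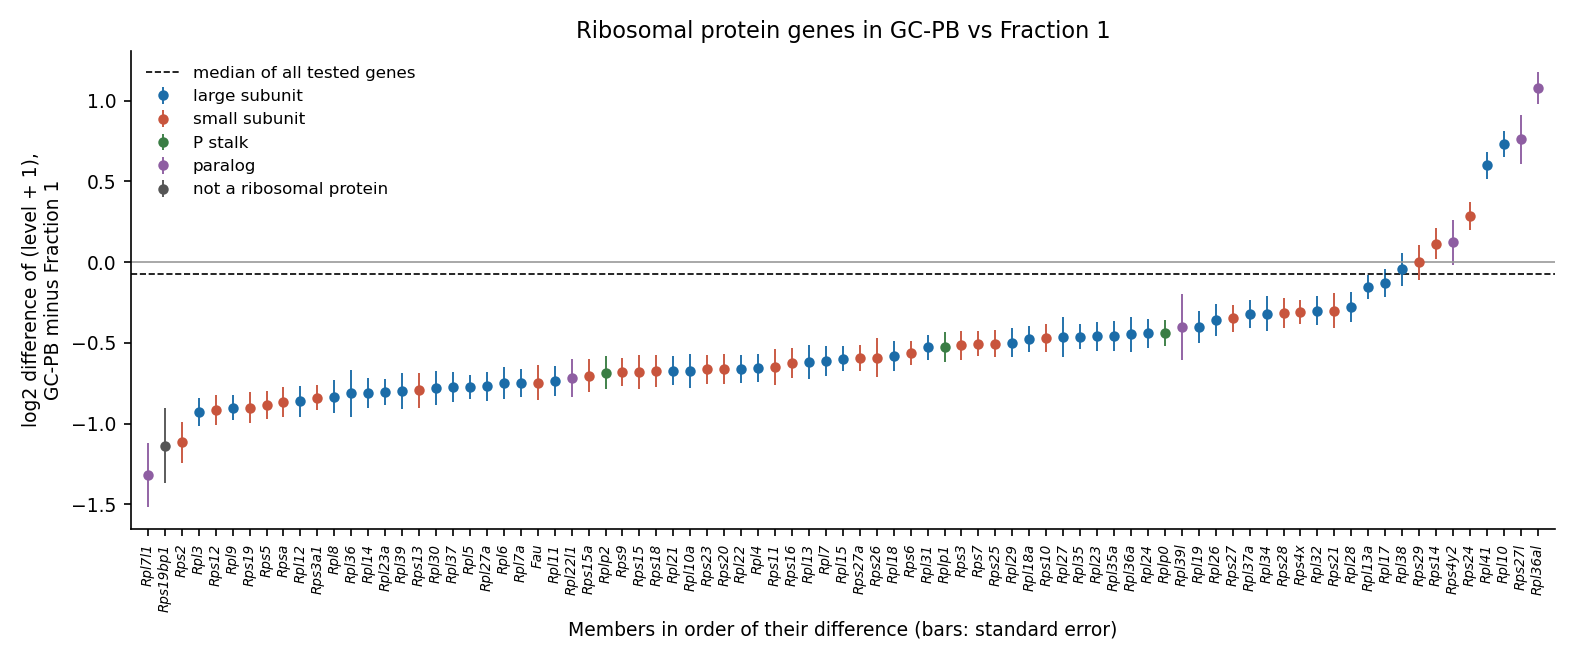
Difference of log2(level + 1), GC-PB minus Fraction 1 (vertical axis), for the members in order, leaving out a few that are not reported, coloured by class, with the standard error of the fit (bars) and the median of all tested genes (dashed line). Most members lie between about the -1.12 of Rps2 and the -0.28 of Rpl28, and Rps24, Rpl41, Rpl10, Rps27l and Rpl36al stand above 0.

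Rps2, a small subunit protein near the channel through which mRNA enters, fell furthest among the canonical members. It had levels of 82.5, 138 and 116 in GC-PB, against 238, 235 and 244 in Fraction 1. Its difference was -1.12 ± 0.126 (adjusted p = 3.22e-07), a level ratio of 0.461. The highest GC-PB library lay under the 3 Fraction 1 libraries by a wide margin, but overlapped those of Fraction 3, at 152, 131 and 142. Among the light zone fractions its libraries ran in separate ranges, highest in Fraction 1, at 188 to 214 in Fraction 2, and lowest in Fraction 3.

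Rpl3, an early-assembling protein next to the catalytic centre of the large subunit, had levels of 60.1, 74.5 and 70.6 in GC-PB, against 134, 128 and 129 in Fraction 1. Its difference was -0.93 ± 0.0885 (adjusted p = 2.86e-08). Rps12, of the small subunit's beak, had levels of 76.3, 103 and 90.8 in GC-PB, against 167, 173 and 168 in Fraction 1, a difference of -0.91 ± 0.0937 (adjusted p = 8.07e-08). Neither overlapped between the groups, and in both genes every plasmablast library was below all 12 germinal centre libraries. Rpl9, of the large subunit, fell by 0.90 on the log2 scale and Rps19, of the small subunit head and the gene most often mutated in the human marrow failure Diamond-Blackfan anaemia, fell by 0.90 as well. Rpsa, the small subunit protein also known as the laminin receptor, had levels of 115, 157 and 120 in GC-PB, against 234, 237 and 239 in Fraction 1, a difference of -0.87 ± 0.0909 (adjusted p = 1.16e-07).

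Rpl5 and Rpl11, which bind a ribosomal RNA of the large subunit and can hold Mdm2 away from p53, fell together. Rpl5 had levels of 89.7, 86.9 and 82.4 in GC-PB, against 148 in each Fraction 1 library, a difference of -0.77 ± 0.0761 (adjusted p = 4.57e-08). Rpl11 had levels of 85.4, 102 and 99.7 in GC-PB, against 167, 162 and 151 in Fraction 1, a difference of -0.74 ± 0.0907 (adjusted p = 1.08e-06). The groups did not overlap for either gene. Neither gene passed the test in a comparison among the germinal centre groups. Rpl5 averaged 142 to 148 there, and Rpl11 averaged 160 ± 8.46 in Fraction 1, 131 ± 7.77 in Fraction 2, 107 ± 7.34 in Fraction 3 and 119 ± 6.30 in DZ, with an adjusted p of 0.0510 for Fraction 1 vs Fraction 2.

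The stalk proteins, which recruit the translation factors that hydrolyse GTP, all fell in GC-PB against Fraction 1. Rplp0, the base of the stalk, had levels of 141, 175 and 168 in GC-PB, against 217, 225 and 213 in Fraction 1, a difference of -0.44 ± 0.0799 (adjusted p = 0.000140). The difference was -0.53 ± 0.0937 for Rplp1 and -0.68 ± 0.104 for Rplp2, whose products sit on Rplp0 in pairs. No stalk gene overlapped between the groups. The Rplp0 and Rplp1 calls were lost with median ratios (-0.15 and -0.23) and at equal sums of the members (0.01 and -0.07), where the Rplp2 call held. The genes that encode a ribosomal protein fused to ubiquitin or a relative of it also fell, with differences of -0.75 ± 0.106 for Fau and -0.59 ± 0.0817 for Rps27a. Fau had levels of 107, 134 and 93.4 in GC-PB, against 189, 188 and 178 in Fraction 1, and ran from 187 to 237 in Fraction 3 and DZ.

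Rpl10, Rpl41 and Rps24 were the canonical members that rose in plasmablasts. Rpl10, which joins the large subunit late and is needed for it to become active, had levels of 239, 258 and 251 in GC-PB. It had 154, 152 and 143 in Fraction 1, 146, 137 and 145 in Fraction 2, 146, 139 and 129 in Fraction 3, and 136, 119 and 132 in DZ. The plasmablast libraries did not overlap any other group, and the difference from Fraction 1 was 0.73 ± 0.0810 (adjusted p = 2.58e-07), a level ratio of 1.66. Rpl10 lies on the X chromosome (chrX:74270812-74273135), as do Rpl36a, Rpl39 and Rps4x, which all fell, with differences of -0.45, -0.80 and -0.31.

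Rpl41, a very short basic peptide at the bridge between the subunits, had levels of 569, 614 and 555 in GC-PB, against 381, 398 and 367 in Fraction 1, a difference of 0.60 ± 0.0821 (adjusted p = 4.52e-06). Its levels in the remaining 9 libraries were 275 to 393, so that plasmablasts again stood above every germinal centre library. Rps24, a small subunit protein needed to process its ribosomal RNA, had levels of 226, 227 and 186 in GC-PB, against 173, 178 and 170 in Fraction 1, a difference of 0.29 ± 0.0886 (adjusted p = 0.0145). The Rps24 call was lost when Fraction 1 replicate 3 was left out, when totals outside the members were set equal and when the fit held the 6 libraries of both groups alone, and it turned on the deposited values (-0.41). The difference ran from 0.24 to 0.38 over the single libraries left out. Rps14, a small subunit platform protein, was also above every other library in GC-PB, at 164, 176 and 168 against 162, 160 and 148 in Fraction 1, but this difference did not pass the test (0.11 ± 0.0959, adjusted p = 0.396).

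**Figure D3:**
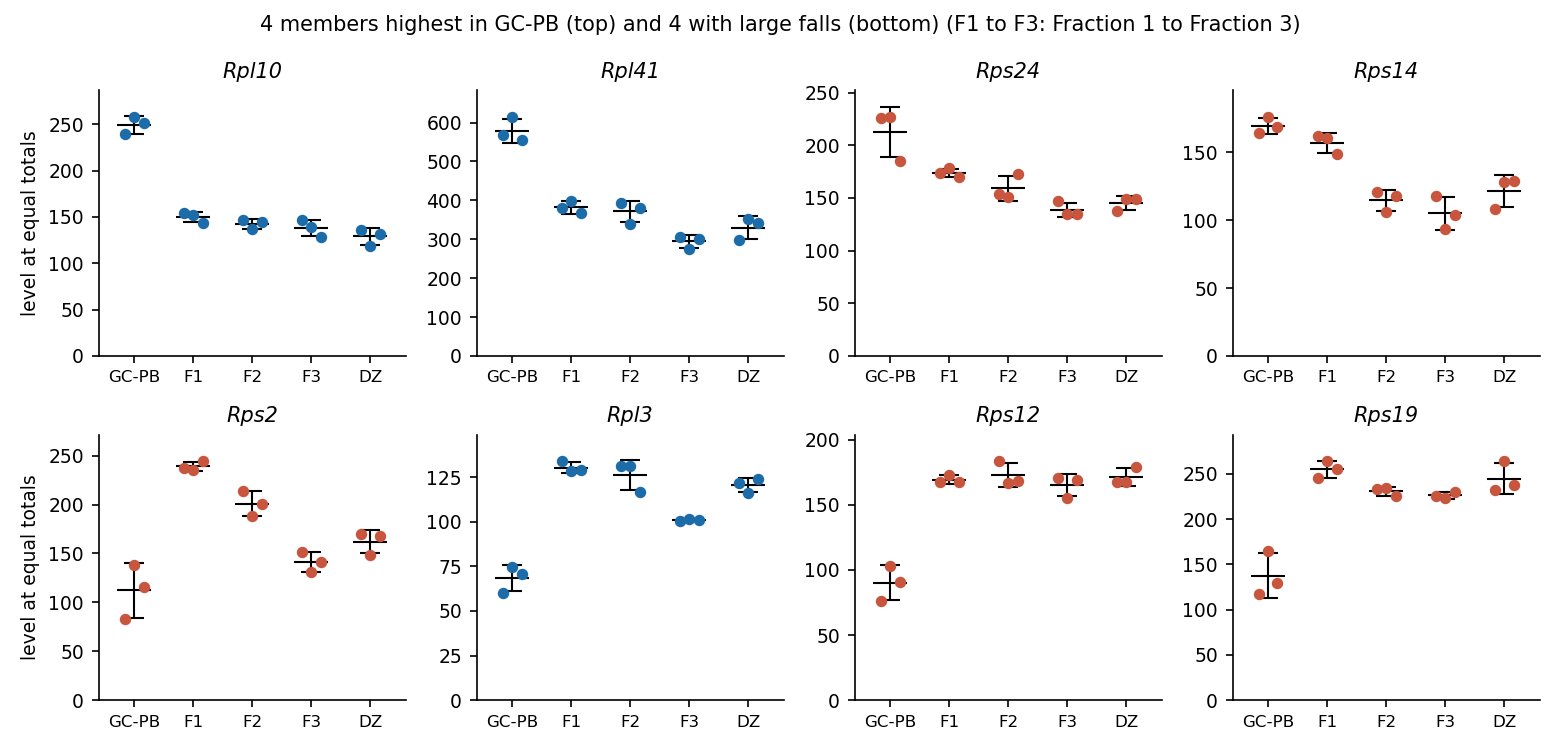
Level at equal library totals (vertical axes, each from 0) of 8 members in every library (points), with the mean and 1 SD of each population (bars), from GC-PB on the left to DZ on the right. Rpl10, Rpl41, Rps24 and Rps14 are highest in GC-PB, and Rps2, Rpl3, Rps12 and Rps19 are lower in GC-PB than in Fraction 1.

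The members that did not pass the test against Fraction 1 were Rpl39l, Rpl13a, Rpl17, Rpl38, Rps29, Rps14 and Rps4y2. Rps29, a zinc-binding protein of the small subunit, had levels of 246, 325 and 265 in GC-PB, against 299, 278 and 256 in Fraction 1, and Rpl38, of the large subunit, had 129, 161 and 141 against 153, 145 and 146. Both overlapped between the groups, with differences of -0.0018 and -0.05. The spread of differences over the 78 canonical members was an SD of 0.32 in this comparison, against a median standard error of 0.09. In the 3 comparisons among germinal centre groups that SD was 0.08 to 0.14.

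Leaving out single libraries gave 69 to 74 lower members, and ended the calls of Rps28 (without GC-PB replicate 3), Rpl32 (without Fraction 1 replicate 1), Rpl28 (without GC-PB replicate 3 or Fraction 1 replicates 1 or 2), Rpl34 (without GC-PB replicate 1 or Fraction 1 replicates 1 or 2) and Rps21 (without GC-PB replicates 1 or 3 or Fraction 1 replicates 1 or 2). The count also depended on how the libraries were brought to a common scale. With size factors by median ratios 48 members were lower and 7 higher, with a median difference of -0.31, and over all genes 2080 were higher and 1970 lower, against 1566 and 2538 at equal totals. Set to equal sums of the members, which asks how each moved relative to the rest, 34 were lower and 10 higher, beside 14.1% lower and 20.3% higher over all tested genes. At equal sums Rpl10 (1.18), Rpl41 (1.06), Rps24 (0.74), Rps14 (0.57), Rps29 (0.45), Rpl38 (0.41), Rpl17 (0.33), Rpl13a (0.30) and the paralogs Rpl36al (1.53) and Rps27l (1.21) were called higher. Rpl7l1 (-0.93), Rps19bp1 (-0.86), Rps2 (-0.66), Rpl3 (-0.48), Rps12 (-0.46), Rpl9 (-0.45) and Rps19 (-0.45) headed those called lower. On the deposited values, with no common scale, 79 members were lower and 1, Rpl36al (0.39), higher, and 1250 genes were higher and 5130 lower, with a median over all genes of -0.42. There Rpl10 (0.04) and Rps27l (0.08) were not called, and Rpl41 (-0.10), Rps24 (-0.41) and Rps14 (-0.58) turned negative. Directions that turn with equal sums of the members, with no call on that scale, included those of Rps27, Rpl19, Rplp0, Rpl36a and Rps4x.

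Of the paralogs, Rpl36al and Rps27l rose in plasmablasts while their canonical partners fell. Rpl36al, an autosomal copy (chr12:69182731-69184083) of the X-linked Rpl36a, had levels of 95.8, 106 and 98.3 in GC-PB, against 47.8, 43.5 and 49.6 in Fraction 1. Its difference of 1.08 ± 0.0974 (adjusted p = 1.25e-08) was the largest rise of any member. Rpl36a had 43.5, 59.9 and 52.7 in GC-PB, against 75.9, 72.7 and 64.2 in Fraction 1, a difference of -0.45 ± 0.107 (adjusted p = 0.00213). Neither gene overlapped between the groups, and they lay on opposite sides. The Rpl36a call was lost with median ratios (-0.16), at equal sums of the members (0.0018) and in the fit of the 6 libraries alone, whereas the Rpl36al call held in each of these. Rpl36al overlaps another protein-coding gene model, Gm49383, on the same strand, so that reads of the overlap cannot be told apart.

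Rps27l, a relative of Rps27 and a known target of p53, had levels of 43.5, 50.3 and 62.5 in GC-PB, against 34.0, 30.1 and 26.5 in Fraction 1, a difference of 0.76 ± 0.154 (adjusted p = 0.000439). Rps27 had 150, 179 and 148 in GC-PB, against 203, 202 and 201 in Fraction 1, a difference of -0.35 ± 0.0852 (adjusted p = 0.00251). The Rps27 call was lost with median ratios (-0.06) and at equal sums of the members (0.11), and the Rps27l call on the deposited values (0.08). Over the 5 groups Rps27l averaged 52.1 ± 9.63 in GC-PB, 30.2 ± 3.76 in Fraction 1, 20.3 ± 0.656 in Fraction 2, 14.8 ± 3.43 in Fraction 3 and 17.0 ± 2.24 in DZ. Rps27 ran the other way, at 159 ± 16.9 in GC-PB, 202 ± 1.15 in Fraction 1, 222 ± 9.32 in Fraction 2, 231 ± 9.91 in Fraction 3 and 244 ± 19.9 in DZ. The 9 libraries of Fraction 2, Fraction 3 and DZ did not overlap the GC-PB and Fraction 1 libraries in either gene. Xist and the step of the values split the libraries in the same way, so population and donor or run cannot be told apart here.

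Rpl7l1 and Rpl22l1 fell, as did their partners. Rpl7l1, a relative of Rpl7 that acts in ribosome assembly, had levels of 5.73, 2.25 and 4.41 in GC-PB, against 11.1, 11.0 and 11.7 in Fraction 1, a difference of -1.32 ± 0.200 (adjusted p = 1.72e-05) beside -0.61 ± 0.0925 for Rpl7. Rpl22l1, whose partner Rpl22 is known to restrain its mRNA, averaged 19.6 ± 1.74 in GC-PB and 32.8 ± 2.74 in Fraction 1, a difference of -0.72 ± 0.116 beside -0.66 ± 0.0875 for Rpl22. Both pairs were lower in every GC-PB library than in every Fraction 1 library. Rpl39l was above 0 in 3 libraries and Rps4y2 averaged under 0.4 in every group, so neither can be placed at this depth. The summed level of the 6 paralogs was 163 to 187 in GC-PB, 117 to 124 in Fraction 1, 96.8 to 102 in Fraction 2, 77.9 to 89.7 in Fraction 3 and 98.6 to 105 in DZ. Rps19bp1, the nucleolar Rps19 binding protein, had levels of 0.975, 1.10 and 1.15 in GC-PB, against 2.46, 4.95 and 3.61 in Fraction 1, a difference of -1.14 ± 0.233 (adjusted p = 0.000491).

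**Figure D4:**
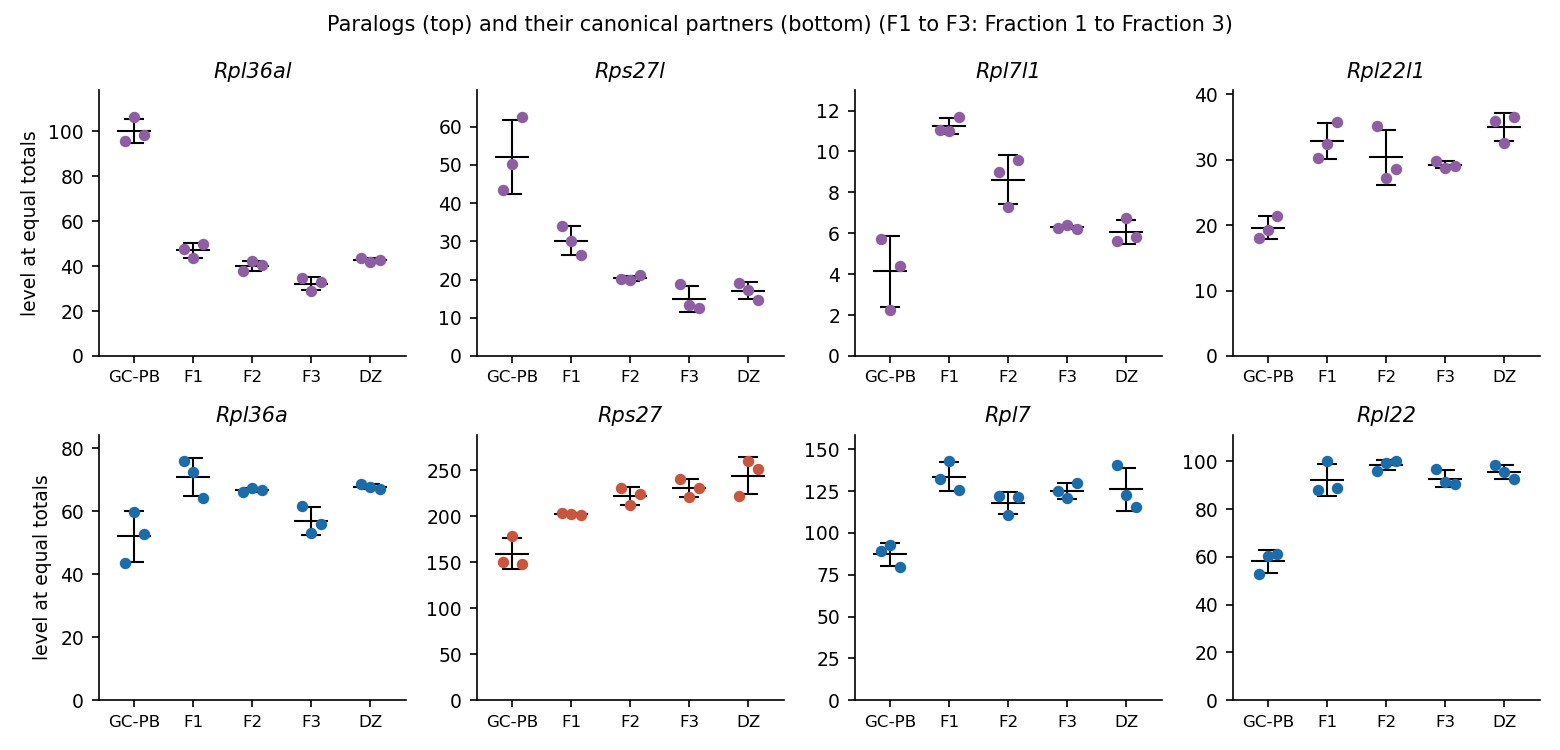
Level at equal library totals (vertical axes, each from 0) of 4 paralogs (top) and their canonical partners (bottom) in every library (points), with the mean and 1 SD of each population (bars), from GC-PB on the left to DZ on the right. Rpl36al and Rps27l are highest in GC-PB while Rpl36a and Rps27 are lower there than in Fraction 1, and Rpl7l1 and Rpl22l1 are lowest in GC-PB, as are Rpl7 and Rpl22.

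Among the light zone fractions, the CD69hi Bcl6lo cells of Fraction 1 gave a slightly larger share of their signal to ribosomal protein mRNA than Fraction 2. Compared with Fraction 2, 4 members were higher in Fraction 1 and none lower in limma. Over all tested genes 3.4% were called higher and 5.18% lower. At an unadjusted p under 0.05, 19 members were higher and 0 lower. At that unadjusted p, 952 of the 11190 tested genes were higher and 1395 lower. The difference was above 0 in 70 of the 85 members, with a median of 0.09, against -0.05 over all tested genes.

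Rps14 had levels of 162, 160 and 148 in Fraction 1, against 120, 106 and 118 in Fraction 2, a difference of 0.45 ± 0.0959 (adjusted p = 0.00476). Rpl14, of the large subunit, had 114, 107 and 112 against 84.2, 84.5 and 87.6, a difference of 0.37 ± 0.0934 (adjusted p = 0.0149), and Rps27l had 34.0, 30.1 and 26.5 against 20.2, 19.8 and 21.1, a difference of 0.54 ± 0.154 (adjusted p = 0.0315). Rpl7a, also of the large subunit, had 145, 150 and 143 in Fraction 1, against 120, 112 and 126 in Fraction 2, a difference of 0.29 ± 0.0849 (adjusted p = 0.0373). None of the 4 overlapped between the fractions. Nearest to no change were Rpl12, with a difference of -0.01, Rps10, with 0.01, and Rps25, with 0.02.

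The Rps14 call held with each of the 6 libraries left out, whereas Rpl7a was not called without any 1 of them, Rpl14 without Fraction 1 replicates 1 or 3 or Fraction 2 replicates 1 or 2, and Rps27l without Fraction 1 replicates 1 or 2 or any Fraction 2 library. At equal sums of the members the Rpl7a and Rps27l calls were lost, Rps14 (0.35) and Rpl14 (0.28) were higher, and Rpl28 (-0.29) and Rps27 (-0.23) were lower. Scaling also moved the counts: with median ratios 19 members were higher (and 504 genes higher and 389 lower, against 380 and 580 at equal totals and 232 and 600 at equal sums of the members), and on the deposited values 83 members and 6120 genes were higher, with a median over all genes of 0.64.

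Within the Bcl6hi light zone, the CD69hi cells of Fraction 2 were set against the CD69lo cells of Fraction 3. Only Rpl38 was called in limma, a large subunit protein known in mouse embryos to favour translation of Hox mRNAs. It had levels of 131, 114 and 131 in Fraction 2, against 94.7, 86.8 and 95.1 in Fraction 3, without overlap, a difference of 0.44 ± 0.0996 (adjusted p = 0.0474). Over all tested genes 0.357% were higher and 0.223% lower. Rps2 differed by more, with 214, 188 and 201 in Fraction 2, against 152, 131 and 142 in Fraction 3, but missed the test (0.51 ± 0.126, adjusted p = 0.0711), as did Rpl41 (0.33, adjusted p = 0.0694) and Rps27a (0.32, adjusted p = 0.0831). The difference was above 0 in 65 of the 85 members, with a median of 0.09 and 21 at an unadjusted p under 0.05, none of them lower. At that unadjusted p, 668 of the 11190 tested genes were higher and 567 lower. Rps10, Rps9 and Rpl19 were nearest to no change, each within 0.01. The Rpl38 call was lost without any 1 of the 6 libraries, and on the deposited values 35 members were higher. Over all genes 40 were higher and 25 lower at equal totals, against 299 and 2 on the deposited values and 22 and 33 at equal sums of the members.

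Between the CD69lo light zone cells of Fraction 3 and dark zone cells limma called 0 members in either direction. Over all tested genes 0.465% were called higher and 0.411% lower. At an unadjusted p under 0.05, 10 members were lower in Fraction 3 and 0 higher. At that unadjusted p, 556 of the 11190 tested genes were lower and 556 higher. The difference was below 0 in 75 of the 85 members, with a median of -0.09. Rpl36al came closest, with levels of 34.5, 29.1 and 32.9 in Fraction 3, against 43.6, 42.0 and 42.8 in DZ, without overlap (-0.40 ± 0.0974, adjusted p = 0.0509). Rplp0 had 193, 191 and 193 in Fraction 3, against 227, 229 and 222 in DZ, also without overlap (-0.23 ± 0.0799, adjusted p = 0.261). Rpl7 and Rps10 were among the members nearest to no change, each within 0.01. Over all genes 52 were higher and 46 lower, against 61 and 25 at equal sums of the members.

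**Figure D5:**
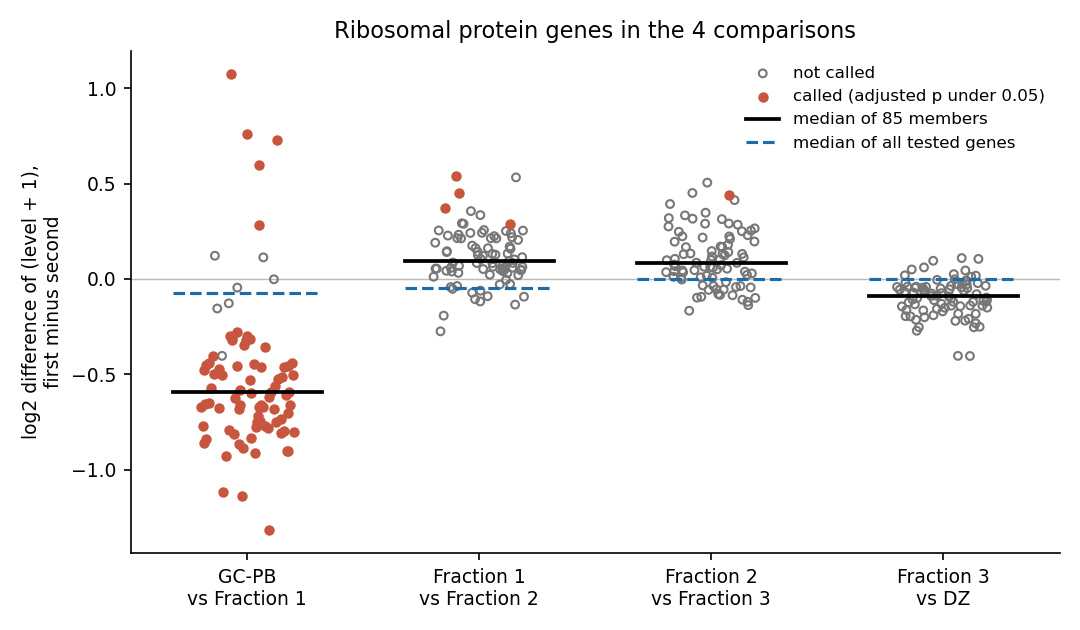
Differences of log2(level + 1), first group minus second (vertical axis), of the 85 members (points, filled where called) in the 4 comparisons, with the median of the members (solid line) and of all tested genes (dashed line). The members' median is -0.59 in GC-PB vs Fraction 1, 0.09 in Fraction 1 vs Fraction 2, 0.09 in Fraction 2 vs Fraction 3 and -0.09 in Fraction 3 vs DZ.

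Member by member, the lowest group mean was that of GC-PB in 69 of the 78 canonical members and that of Fraction 3 in 8, and the highest was that of Fraction 1 in 47 and of DZ in 18. How often these groups held the lowest or highest mean over all tested genes was not counted. Group means increased in the order Fraction 3, Fraction 2, Fraction 1 in 50 of the 78 (64.1%), against 22.8% of all tested genes, and decreased in that order in 4, namely Fau, Rpl13a, Rps20 and Rps27, against 29.6%. Fau, for example, averaged 185 ± 5.77 in Fraction 1, 193 ± 3.04 in Fraction 2 and 217 ± 6.66 in Fraction 3, with no overlap between neighbours, although neither step was called. These orders are counts of means, and most single steps lay within the spread of the libraries. Between Fraction 2 and Fraction 1 the orders also cross the divide in Xist, where fraction and donor or run cannot be told apart.

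Genes that work with the ribosomal proteins also fell in plasmablasts. Among 21 other genes whose mRNAs are known to carry the TOP motif, 19 were lower and 1 higher in GC-PB than in Fraction 1, with a median of -0.98. Of all tested genes 22.7% were lower and 14% higher. With median ratios 16 of the 21 were lower and 2 higher. Npm1, a nucleolar chaperone of ribosome assembly, averaged 19.1 ± 2.90 in GC-PB and 190 ± 10.3 in Fraction 1 (-3.26 ± 0.127, adjusted p = 2.39e-14). Pabpc1, the poly(A) binding protein, averaged 91.5 ± 9.11 in GC-PB and 313 ± 26.0 in Fraction 1 (-1.76 ± 0.0957). Nap1l1, a histone chaperone, differed by -2.75 ± 0.129, and Tpt1, the tumour protein whose mRNA is a textbook TOP mRNA, rose by 0.46, a direction that turned on the deposited values (-0.24). The ribosomal component Gnb2l1 (Rack1), outside the rule, fell by 0.80 on the log2 scale.

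Among 25 factors that assemble or export ribosomal subunits, 20 were lower and 0 higher in GC-PB than in Fraction 1, with a median of -1.14. The shares of all tested genes were 22.7% lower and 14% higher. With median ratios 18 of the 25 were lower and 1 higher. Rrs1 averaged 0.963 ± 0.372 in GC-PB and 10.2 ± 1.38 in Fraction 1 (-2.53 ± 0.202, adjusted p = 1.85e-09). Mrto4, which holds the place of the stalk during assembly, differed by -2.17 ± 0.213 and Emg1, a methylase of ribosomal RNA, by -1.56 ± 0.138. In Fraction 1 vs Fraction 2, 7 of the 25 were higher and 0 lower, with a median of 0.63, among them Mrto4 (1.15 ± 0.213), Pno1 (1.14 ± 0.210) and Bysl (0.88 ± 0.232). In that comparison 3.4% of all tested genes were higher and 5.18% lower. For the TOP list 5 of 21 were higher in Fraction 1 and 0 lower, with a median of 0.19, led by Npm1 (0.92 ± 0.127), Naca (0.51 ± 0.117) and Btf3 (0.45 ± 0.108). In Fraction 2 vs Fraction 3 only Npm1 was called in these lists (0.62 ± 0.127, adjusted p = 0.0298), and in Fraction 3 vs DZ no gene of either list was.

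Of 14 genes that control the transcription or translation of ribosomal protein mRNAs, Myc averaged 2.02 ± 1.06 in GC-PB, 17.0 ± 3.12 in Fraction 1, 6.22 ± 0.895 in Fraction 2, 4.23 ± 1.64 in Fraction 3 and 0.810 ± 0.300 in DZ. Its difference was -2.62 ± 0.249 for GC-PB vs Fraction 1, 1.31 ± 0.249 for Fraction 1 vs Fraction 2 and 1.49 ± 0.249 for Fraction 3 vs DZ, all called. Larp1 averaged 7.75 ± 1.12 in GC-PB, 22.3 ± 1.56 in Fraction 1 and 10.9 ± 1.31 in Fraction 2 (-1.42 ± 0.183 and 0.97 ± 0.183 for these 2 comparisons). In all, 4 of the 14 were lower and 1, the S6 kinase gene Rps6kb2, higher (0.66 ± 0.223) in GC-PB than in Fraction 1, beside 22.7% lower and 14% higher over all tested genes, so that the list does not stand apart by its count. In Fraction 1 vs Fraction 2, Myc and Larp1 were higher and 0 were lower, beside 3.4% higher and 5.18% lower over all tested genes.

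The mitochondrial ribosomal proteins, which make up the separate ribosome of that organelle, were set beside the cytosolic ones. Of 76 tested, 37 were lower and 1 higher in GC-PB than in Fraction 1, with a median of -0.57. Of all tested genes 22.7% were lower and 14% higher. With median ratios 26 of the 76 were lower and 4 higher. Mrpl12, Mrpl15 and Mrpl23 led the falls, with differences of -1.73 ± 0.215, -1.70 ± 0.241 and -1.26 ± 0.191. In Fraction 1 vs Fraction 2, 2 were higher, Mrps30 (0.90 ± 0.246) and Mrpl17 (0.57 ± 0.171), and 0 lower. The shares of all tested genes were 3.4% and 5.18%, so that the list does not stand apart by its count there. Its median was 0.36, against -0.05 over all tested genes. None was called in the other comparisons. Whether the cytosolic and mitochondrial proteins differ from each other was not tested.

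The members' starts were also compared by direction in plasmablasts. Of the members lower in GC-PB than in Fraction 1 that had a start, 26 of 56 (46.4%) held the run, as did 2 of 5 that were higher (Rps24 and Rps27l) and 2 of 3 that were not called. Rps24 and Rps27l each have more than 1 listed start. Among members with a single start, 0 of 3 that were higher and 22 of 49 that were lower (44.9%) held the run. With 5 higher members and 3 not called, these shares rest on few genes, and whether they differ was not tested.

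The genes whose 5 group means ran most like the summed level of the members, among 822 candidates with a mean level of at least 10, were Tcp1 (Pearson r = 1.00), Gnb2l1 (0.997), Fam105b (0.996), Snrpg (0.996) and Tardbp (0.995). Tcp1, a subunit of the cytosolic chaperonin, averaged 11.7 in GC-PB, 35.4 in Fraction 1, 28.3 in Fraction 2, 22.3 in Fraction 3 and 28.3 in DZ. These r rest on 5 points that share their libraries and were picked for their size.

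The members lie on 20 chromosomes, and 84 of the 85 were placed in the GENCODE M21 annotation of GRCm38, where Rps4y2 was not. That annotation names 291 genes as pseudogenes of members, and 19 members overlap another protein-coding gene. How reads that match several of these copies were counted, and whether strand was used, is not given in the sources used here. Of the members' values 83.6% were whole multiples of their library's step, against 91.9% of all values above 0. Values off the step were most frequent in Rps15a and Rpl7l1 (13 of 15 libraries each) and in Rps26 and Rpl22l1 (11 each), against 1 library for Rpl10 and 0 each for Rpl36al and Rps12.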

How the data were processed

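RNA was measured in 15 libraries of 100 cells. Per the labels' protocols, the authors put an equal amount of ERCC control RNA in each tube, fragmented the RNA by heat, tagged cDNA with molecular barcodes in an oligo(dT)-primed reverse transcription and amplified it by PCR. Reads were aligned to mm10 with TopHat2, per the submitters' processing notes; the version, the gene annotation and the treatment of reads with several matches are not given in the sources used here. The deposited table holds a signal per gene and library, whose scaling is not stated. Values are read here as molecules multiplied by a step particular to each library, since the most frequent value of a library divided 91.0% to 92.6% of its nonzero values into whole numbers (tolerance 0.02). This was too few to recover whole reads, so no count model was used. ERCC rows were not analysed here, so that RNA content per cell is not given.

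From these values the libraries were scaled to the mean total without Rn45s, and log2(level + 1) was modelled in limma 3.58.1 (R 4.3.3, trend of the variance with intensity). A single fit covered all 15 libraries and estimated a mean for each of the 5 groups, over genes detected in 3 or more libraries. A fold on this scale understates changes of low genes. The pipeline was tested on simulated data. Positions come from GENCODE M21 and sequences from RefSeq. The genes named are the 8 with the highest mean level, the members called with the largest changes (up to 5 in each direction) and nearest to no change (up to 3) in each comparison, the paralogs with their partners, the stalk proteins, Rpsa, Fau, Rps27a, Rpl5, Rpl11, X-linked members and Rps19bp1. From other lists, up to 3 called genes with the smallest p were named. Further members were named where a count of 5 or fewer or a single setting turned on them, chosen after their values were seen. Some genes that these rules name are not reported here. The members, lists and comparisons were chosen with earlier results of these data known. The replicate numbers of the titles did not pair the libraries. Alternatives were other scalings, a pseudocount of 0.1, other filters, a replicate block, fits of 6 libraries and leaving out each library.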

Additional observations from a re-analysis of the deposited data

How the results depend on the processing

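The counts and medians of the members moved with the scale, since the libraries differ in deposited total. On the deposited values 35 members were higher in Fraction 2 vs Fraction 3, 83 in Fraction 1 vs Fraction 2 and 1 in GC-PB vs Fraction 1, where 79 were lower. Genes called there numbered 27 in Fraction 3 vs DZ, 301 in Fraction 2 vs Fraction 3, 6183 in Fraction 1 vs Fraction 2 and 6380 in GC-PB vs Fraction 1, and the members' medians were -0.16, 0.50, 1.53 and -1.29. In Fraction 1 vs Fraction 2 the deposited values turned 14 of the 85 members positive, among them 9 of those named by rule: Rps29 (1.40), Rpsa (1.43), Rps27 (1.32), Rpl12 (1.44), Rps12 (1.42), Fau (1.39), Rpl39 (1.33), Rps4x (1.41) and Rpl22 (1.35). In GC-PB vs Fraction 1 they turned 3 members, Rpl41 (-0.10), Rps14 (-0.58) and Rps24 (-0.41). With median ratios 0 members and 43 genes were called in Fraction 2 vs Fraction 3 (members' median 0.062), 19 members were higher in Fraction 1 vs Fraction 2 (0.21), and 48 were lower in GC-PB vs Fraction 1 (-0.31), where 5 members turned positive, among them Rps29 (0.29). At equal totals outside the members 1 member, Rpl36al, was lower in Fraction 3 vs DZ and 7 were higher in Fraction 1 vs Fraction 2, with medians of -0.11, 0.11, 0.12 and -0.71 in the 4 comparisons. On that scale 101 genes were called in Fraction 3 vs DZ and 991 in Fraction 1 vs Fraction 2. Setting the members' sums equal brings their medians near 0 by construction, at -0.00095, -0.0095, -0.0027 and -0.14, and left 2 members higher and 2 lower in Fraction 1 vs Fraction 2, and 10 higher and 34 lower in GC-PB vs Fraction 1. In GC-PB vs Fraction 1 it turned 18 members positive, among them Rps29 (0.45), Rpl38 (0.41), Rps4x (0.14), Rps27 (0.11), Rpl19 (0.049), Rplp0 (0.014) and Rpl36a (0.0018).

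A pseudocount of 0.1 left 53 genes called in Fraction 3 vs DZ, and 0 members and 15 genes in Fraction 2 vs Fraction 3. With genes above 0 in at least 1 library, 1 member (Rpl36al) was lower in Fraction 3 vs DZ and 0 were called in Fraction 2 vs Fraction 3. With genes above 0 in all 15 libraries, 1 member was lower in Fraction 3 vs DZ, 4 members and 114 genes were called in Fraction 2 vs Fraction 3 and 7 members were higher in Fraction 1 vs Fraction 2. That filter gave 102 called genes in Fraction 3 vs DZ and 1000 in Fraction 1 vs Fraction 2. Fits of only the 6 libraries called 31 genes in Fraction 3 vs DZ, 0 members and 0 genes in Fraction 2 vs Fraction 3, and 14 members higher and 1 lower in Fraction 1 vs Fraction 2. In that last fit 1081 genes were called. Where not stated by construction, the cause was not tested.

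The replicate numbers did not pair the libraries: deviations from the group means of same-numbered libraries correlated at -0.038 to 0.037, and 5 of 15 libraries correlated best with their own number. With the replicate block, 0 members and 36 genes were called in Fraction 2 vs Fraction 3, where Rpl38 was lost, and Rpl7a was lost in Fraction 1 vs Fraction 2 (3 members higher). The block left 5 higher and 73 lower in GC-PB vs Fraction 1.

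Leaving out single libraries gave 37 to 81 genes in Fraction 3 vs DZ (members' median -0.12 to -0.066), 0 members and 18 to 32 genes in Fraction 2 vs Fraction 3 (0.073 to 0.11), 1 to 2 members and 514 to 642 genes in Fraction 1 vs Fraction 2 (0.09 to 0.11), and 4 to 5 members higher and 69 to 74 lower in GC-PB vs Fraction 1 (-0.66 to -0.53). The mean share of the members was then 16.3% to 17.9% in GC-PB and 23.4% to 23.8% in Fraction 1. It was 21.8% to 22.3% in Fraction 2, 20.4% to 20.8% in Fraction 3 and 21.8% to 22.4% in DZ. Depth limits Rpl39l, Rps4y2 and Rps19bp1, which rest on few molecules.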

Other observations

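The TOP list also holds the elongation factors that deliver tRNA to the ribosome and move it along, and non-coding host genes of small nucleolar RNAs. These genes were chosen after their values were seen. Eef1a1, which brings tRNA, averaged 238 ± 10.6 in GC-PB and 340 ± 13.5 in Fraction 1 (-0.51, adjusted p = 5.77e-06 in limma), and Eef2, which translocates the ribosome, averaged 46.2 ± 5.49 in GC-PB and 67.4 ± 4.79 in Fraction 1 (-0.54, adjusted p = 0.000160). The non-coding Gas5 averaged 15.6 ± 2.82 in GC-PB, 48.6 ± 2.76 in Fraction 1, 36.3 in Fraction 2, 31.2 in Fraction 3 and 30.7 in DZ, with a difference of -1.60 for GC-PB vs Fraction 1. Snhg1 averaged 2.59 ± 0.662 in GC-PB, 9.96 ± 1.36 in Fraction 1, 5.73 in Fraction 2, 4.84 in Fraction 3 and 3.53 in DZ, and was called in both GC-PB vs Fraction 1 (-1.62) and Fraction 1 vs Fraction 2 (0.71, adjusted p = 0.0273).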
